A study of Mus musculus with 6 samples.

Results

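The 10 genes followed here belong to the autophagy pathway and were measured through the first wave of spermatogenesis in mouse testis. They were Gabarapl1 with its ATG8 relatives Gabarap, Gabarapl2, Map1lc3a and Map1lc3b, and the pathway genes Ulk1, Becn1, Atg5, Atg7 and Sqstm1. The members were all rows of the pA table that carried 1 of these gene symbols. This gave 10 of 17132 genes and 50 of 73540 entries of pAs (cleavage and polyadenylation sites). A pA assigned to several genes has an entry for each of them. Of the 50 pAs, 30 belonged to the 3'-most exon, 6 were intronic and 14 were antisense sites ahead of the transcription start site (TSS), and 0 were shared with another gene. The set was selected on the levels and pA usage of these genes in the 6 libraries, so those values are given as a description.

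Whole testes of FVB mice, with no treatment and no genotype beyond the strain given in the labels, were taken at 4w, 5w and 6w (the 4–6 week samples) and at 1w, 2w and 3w (the 1–3 week samples). RNA was read by 3'READS, which sequences the 3' ends of poly(A)+ RNA, so that reads are counted per transcript end and not along its length. The libraries were amplified by PCR and no molecular identifiers are described, so reads are not independent molecules. Each week had 1 library and no replicate, and the spread within a group of 3 libraries holds age as well as error. How many mice gave each library is not stated in the sources used here. Levels are reads of the 3'-most exon as RPM, scaled to the poly(A) site-supporting (PASS) reads of the library.

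Autophagy encloses cytoplasm, organelles or protein aggregates in a double membrane and delivers them to the lysosome. The ULK1 kinase starts the process, a lipid kinase complex built on Beclin 1 marks the growing membrane, and the enzyme system around ATG7 and ATG5 couples ATG8 proteins to its lipids. Vertebrate ATG8 proteins fall into the GABARAP branch and the LC3 branch, and receptors such as SQSTM1 link them to cargo. In mouse germ cells the pathway is known for its part in building the acrosome and in clearing cytoplasm from the spermatid.

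The pAs of the members whose transcript ends are described below are shown first. Gabarapl1 changed its main end in every 4–6 week library and is shown with its most used sites. Gabarap, Map1lc3b and Becn1, which kept theirs, are shown beside it. Sqstm1, not shown, was more evenly split. Its distal pA held 45.2% of 3'-most exon reads in the 4–6 week samples and 54.0% in the 1–3 week samples. Its proximal pA held 53.1% and 42.9%. At 6w the distal pA was again the larger, at 52.4%. Each run is the last 30 bases of the transcribed strand up to the pA (mm9), and capitals mark the polyadenylation signal (PAS) hexamer found by the search. In Gabarapl1 (chromosome 6, plus strand) the site used most in the 4–6 week samples, chr6:129491285-129491314, held none of the 12 hexamers searched, while the next, chr6:129491497-129491526, held a variant and the last, chr6:129492320-129492349, the canonical one. The main sites of Gabarap (chr11:69808419-69808448, plus strand) and Map1lc3b (chr8:124121917-124121946, plus strand) had AATAAA. The proximal site of Map1lc3b (chr8:124120897-124120926) had it too, but starting 8 nt before the end, against 21 nt at its main site. In Becn1 (minus strand) the proximal site (chr11:101150017-101150046) had ATTAAA where the distal one (chr11:101149576-101149605) had AATAAA.
Gabarapl1 129 nt after the stop codon: gacgcaaggtgaagacatcgggaaacatca
Gabarapl1 341 nt after the stop codon: ccgctagagaagAATACAatttagcagcaa
Gabarapl1 1164 nt after the stop codon: gaAATAAAataattgcttaccttaaaagtc
Gabarap 422 nt after the stop codon: catcAATAAAaaggaaaccaccgagctgaa
Map1lc3b 256 nt after the stop codon: actttttgcatcctaagttgccAATAAAaa
Map1lc3b 1276 nt after the stop codon: tgatgcactAATAAAggcacaacgaacctg
Becn1 110 nt after the stop codon: atATTAAAccacatgtttacaataccaaaa
Becn1 551 nt after the stop codon: AATAAAggatttgctatggtctattaatta

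Across the 30 last-exon pAs of the members, 13 had AATAAA in the 40 nt before the pA, 4 had ATTAAA, 7 had another variant and 6 had none. The search was for AATAAA, then ATTAAA, then a variant (AGTAAA or TATAAA or CATAAA or GATAAA or AATATA or AATACA or AATAGA or ACTAAA or AAGAAA or AATGAA) on the transcribed strand alone, and a pA with several hexamers was counted under the first in this order. Of 45866 last-exon pAs of all genes, 38.9% had AATAAA, 14.1% ATTAAA, 22.8% another variant and 24.1% none.

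The pA table held between 3529414 and 5479133 reads per library, with the reads of a shared pA counted for each of its genes. In RPM, 1 read was worth 0.143 to 0.236. The makeup of the libraries changed with age. The 10 most abundant genes took 21.6% to 34.5% of last-exon reads in the 4–6 week samples and 8.87% to 9.55% in the 1–3 week samples, and the RPM of every gene is relative to the total that includes them. The median gene had a log2 change of −1.39 on PASS totals, −0.07 with trimmed mean (TMM) scaling and 0.07 with DESeq2 size factors, so both RPM and the change relative to all genes (TMM) are given. Of 7 spermatid markers listed 6 could be measured, Prm1 and Tnp1 among them, and all 6 rose. Their summed RPM was 83749 to 186964 in the 4–6 week samples, against 443, 67.5 and 533 at 1w, 2w and 3w. Why 1w lay above 2w was not tested. Summed RPM of 6 Sertoli cell markers, Sox9 and Amh among them, was 73.6 to 181 in the 4–6 week samples and 637 to 1439 in the 1–3 week samples, and all 6 fell. Acrv1, at 2w, was the only marker of either list at 0 in a library. In the 4–6 week samples against the 1–3 week samples, markers of peritubular, vascular and blood cells summed to 84.4 to 183 against 467 to 1031 RPM (3 of 3 tested fell), spermatogonia to 116 to 247 against 529.6 to 1920.0 RPM (1 of 3 fell), Leydig cells to 222 to 435.9 against 353 to 472 RPM (1 of 4 rose) and spermatocytes to 2897 to 6646 against 1096 to 10568 RPM (1 of 5 rose). Uchl1 held most reads of the spermatogonia list in every library, with 763 at 6w and 7008 at 1w. In that list Zbtb16, Kit and Stra8 also fell in reads. Gfra1 went the other way, with 4, 12 and 18 reads at 4w, 5w and 6w, against 0 at 1w, 2w and 3w. Sycp3 held most reads of the spermatocyte list in every library, so each of these sums largely follows a single gene. Fewer cells of a type and less RNA per cell cannot be told apart in whole testis, and the part of these markers in the results below was not tested.

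Of the 10 members, 3 (Gabarapl1, Gabarap, Map1lc3a) were higher in the 4–6 week samples with an adjusted p under 0.05 in edgeR's quasi-likelihood test (Benjamini-Hochberg over all genes), 4 (Gabarapl2, Map1lc3b, Ulk1, Atg5) were lower and 3 (Becn1, Atg7, Sqstm1) did not pass. Among all 11269 genes tested 17.7% were higher, 22.5% lower and 40.2% changed in either direction. With 1 library left out, Gabarapl1 was the only member whose call of level held each time. The number of members called higher was 2 without 1w, 1 without 2w, 4 without 3w, 2 without 4w and 1 without 5w or without 6w. The number called lower was 2 without 1w, 5 without 3w and 0 without any 1 of the others (3 or 4 at an unadjusted p under 0.05), so none of the 4 lower calls held each time. All 10 members were kept by the filter on low counts. The median log2 change of the members was −0.62. In RPM, all 3 libraries of the 4–6 week samples lay above all 3 of the 1–3 week samples for 3 members, as for 14.3% of all genes, and below them for 6 members, as for 60.6%. Since the members were selected on these same libraries, the adjusted p is no test of them. The calls, the counts and the values below describe the genes, and nothing is read from them.

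**Figure D1:**
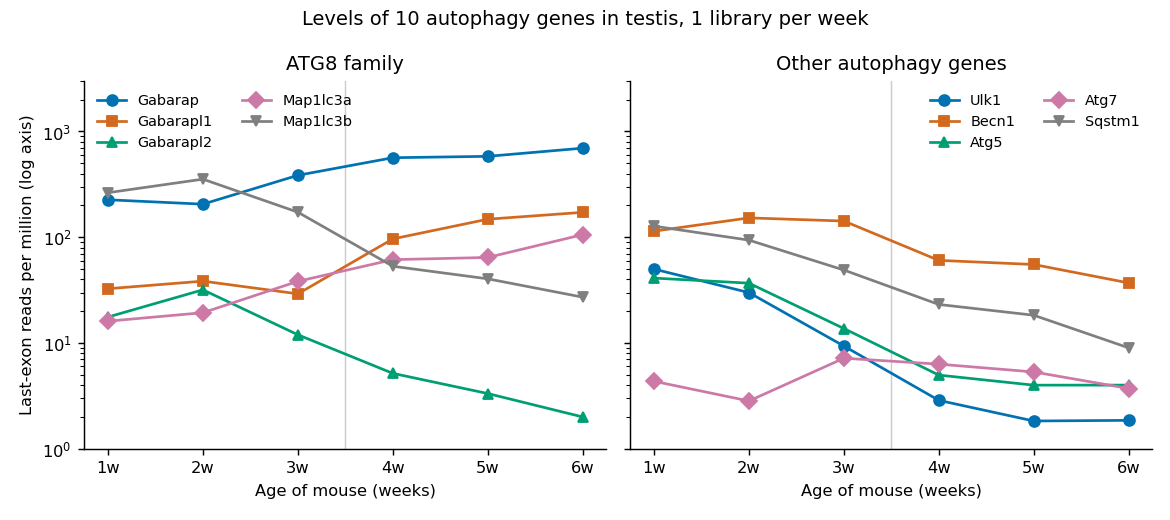
Last-exon RPM on PASS totals (log axis) of the 10 members against the age of the mouse, 1 point per library, with the ATG8 family on the left, the other members on the right and a vertical line between 3w and 4w. Gabarapl1 sits between 96.4 and 172 RPM in the 4–6 week samples and between 29.2 and 38.5 RPM in the 1–3 week samples, while Map1lc3b and Ulk1 run the other way.

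Gabarapl1 (gene ID 57436), a member of the GABARAP branch, lies on chromosome 6 at 129483218 to 129492349 (mm9, plus strand) in 4 exons. It had 504, 890 and 1204 last-exon reads in the 4w, 5w and 6w libraries, against 150, 163 and 134 reads in the 1w, 2w and 3w libraries. This was 96.4, 148 and 172 RPM in the 4–6 week samples, against 32.6, 38.5 and 29.2 RPM in the 1–3 week samples. The groups did not overlap, the 3 early libraries were close to each other, and the step came between 3w and 4w. The mean was 139 ± 38.6 RPM in the 4–6 week samples and 33.4 ± 4.70 RPM in the 1–3 week samples (SD, n = 3 libraries each), a 4.16-fold higher level. The fitted log2 change relative to all genes was 3.47, and it was 2.05 on PASS totals.

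The 5 last-exon pAs of Gabarapl1 behaved differently from each other. The pA 129 nt after the stop codon, the proximal one of the pair with most reads (Prx-pA), had 360, 683 and 926 reads in the 4w, 5w and 6w libraries, against 11, 10 and 11 at 1w, 2w and 3w. The pA 1164 nt after the stop codon, the distal one (Dis-pA), had 39, 51 and 49 reads in the 4w, 5w and 6w libraries, against 132, 146 and 116 at 1w, 2w and 3w. The Prx-pA was high in every 4–6 week library and the Dis-pA in every 1–3 week library, with no overlap at either site. In RPM the Prx-pA averaged 105 in the 4–6 week samples and 2.38 in the 1–3 week samples, and the Dis-pA 7.65 and 29.5 RPM, so the gain in level lay at the upstream end while the downstream end lost reads.

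Further sites moved with the Prx-pA. The pA at 341 nt had 77, 119 and 169 reads in the 4w, 5w and 6w libraries, against 2, 2 and 4 at 1w, 2w and 3w. The pA at 263 nt had 22, 30 and 55 reads in the 4w, 5w and 6w libraries and 0 in each 1–3 week library, which allows up to 0.671% of the early last-exon reads, against 4.12% of the late ones. The pA at 665 nt, with its ATTAAA, kept 6, 7 and 5 reads in the 4w, 5w and 6w libraries, against 5, 5 and 3 at 1w, 2w and 3w.

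**Figure D2:**
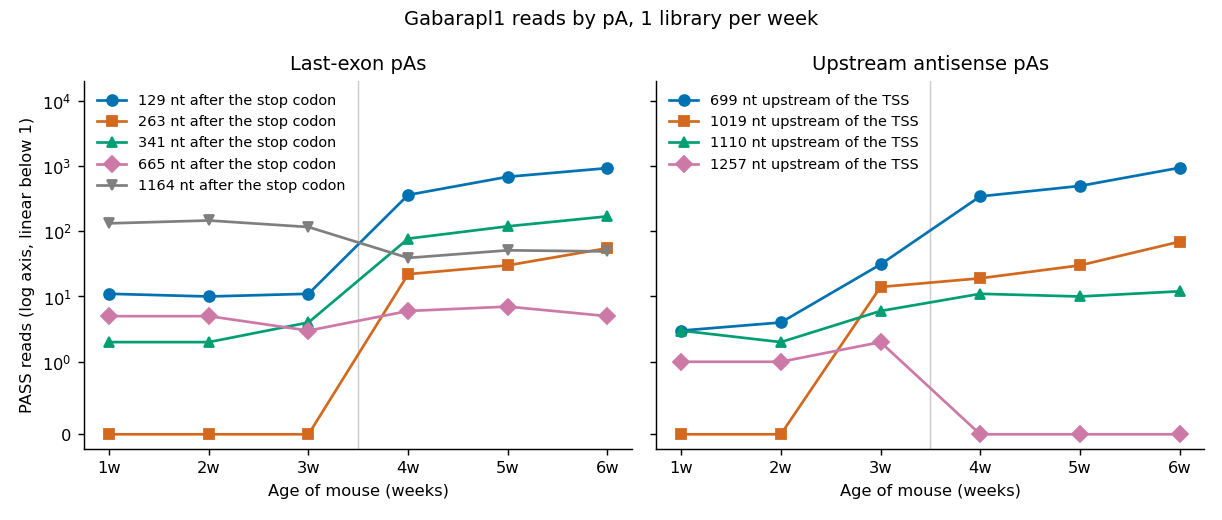
PASS reads (log axis, linear below 1) at each Gabarapl1 pA against the age of the mouse, with last-exon pAs on the left, named by distance after the stop codon, and upstream antisense pAs on the right, named by distance from the TSS. The last-exon site at 129 nt reaches 360 to 926 reads in the 4–6 week samples and 10 or 11 in the 1–3 week samples, while the site at 1164 nt goes the other way.

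The Dis-pA share of Gabarapl1, the reads of the Dis-pA over those of both pAs, was 9.77%, 6.95% and 5.03% at 4w, 5w and 6w, against 92.3%, 93.6% and 91.3% at 1w, 2w and 3w. The 95% Wilson interval was 7.23% to 13.1% at 4w and 85.2% to 95.1% at 3w, which covers counting error in 1 library each and no spread between animals. Pooled over libraries, the Dis-pA took 139 of 2108 reads in the 4–6 week samples and 394 of 426 in the 1–3 week samples. Over all 5 last-exon pAs the Dis-pA held 5.35% of reads in the 4–6 week samples and 88.1% in the 1–3 week samples. The read-weighted 3'UTR size was 254, 225 and 209 nt at 4w, 5w and 6w, against 1060, 1075 and 1043 nt at 1w, 2w and 3w. The aUTR, the stretch between the Prx-pA and the Dis-pA, was 1035 nt long with 27.6% T, where the median over 4271 genes was 532 nt and 31.7%.

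Upstream of Gabarapl1 the antisense reads also moved. The table placed 4 antisense pAs there, with 372, 534 and 1018 reads together at 4w, 5w and 6w, against 7, 7 and 53 at 1w, 2w and 3w. This averaged 102 RPM in the 4–6 week samples and 4.90 RPM in the 1–3 week samples, and every 4–6 week library was above every 1–3 week library, with 3w already above 1w and 2w. By reads in the 4–6 week samples Gabarapl1 ranked 25 of 5007 genes with an upstream antisense pA. Most of the reads were at 1 pA, 699 nt upstream of the TSS (chromosome 6, position 129482519, minus strand), with 342, 494 and 937 reads in the 4w, 5w and 6w libraries, against 3, 4 and 31 at 1w, 2w and 3w. This pA lies within 1700101I11Rik, a lincRNA annotated on the minus strand at 129482112 to 129483290 that overlaps the first bases of Gabarapl1. Upstream antisense RNA (uaRNA) and this lincRNA cannot be told apart here.

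Gabarap (gene ID 56486), which gives the GABARAP branch its name, was the most abundant member in the 4–6 week samples. It had 565, 582 and 696 RPM at 4w, 5w and 6w, against 226, 206 and 385 RPM at 1w, 2w and 3w. The groups did not overlap, and 3w lay between the 2 earlier libraries and the late ones. The mean was 614 ± 70.9 RPM in the 4–6 week samples and 272 ± 98.4 RPM in the 1–3 week samples (SD, n = 3 libraries each), with a log2 change of 2.48 relative to all genes (3.12 without 3w) and 1.17 on PASS totals. Nearly all reads ended 422 nt after the stop codon. A minor pA at 260 nt had 17, 24 and 42 reads in the 4w, 5w and 6w libraries and 0 in each 1–3 week library, which was 0.733% of the late reads, where the early depth allowed up to 0.0815%.

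Map1lc3a, of the LC3 branch, had 61.4, 64.4 and 106 RPM at 4w, 5w and 6w, against 16.1, 19.4 and 38.3 RPM at 1w, 2w and 3w. All late libraries were above all early ones, and 3w was the highest of the early ones. The log2 change was 2.98 relative to all genes (3.77 without 3w) and 1.65 on PASS totals. Its reads ended at a single last-exon pA, 435 nt after the stop codon, in all 6 libraries, so it had a single 3'UTR form here. An antisense pA 192 nt upstream of its TSS had 12, 34 and 50 reads in the 4w, 5w and 6w libraries, against 0, 0 and 1 at 1w, 2w and 3w, but Pigu is annotated over it on the same strand, so uaRNA and Pigu transcripts cannot be told apart.

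Map1lc3b encodes LC3B, the usual marker protein of autophagosomes, and ran opposite to Map1lc3a. It had 53.2, 40.5 and 27.1 RPM at 4w, 5w and 6w, against 264, 354 and 173 RPM at 1w, 2w and 3w. Every late library was below every early one, with the highest level at 2w. The mean was 40.3 ± 13.0 RPM in the 4–6 week samples and 264 ± 90.8 RPM in the 1–3 week samples (SD, n = 3 libraries each), with a log2 change of −1.39 relative to all genes and −2.71 on PASS totals. Its Dis-pA share was 93.9%, 91.4% and 92.6% at 4w, 5w and 6w, against 98.4%, 98.9% and 98.2% at 1w, 2w and 3w. The groups did not overlap, but the long 3'UTR stayed the main form at every age. The Prx-pA averaged 2.92 RPM in the 4–6 week samples and 3.73 RPM in the 1–3 week samples, with overlapping libraries, and the Dis-pA averaged 37.4 and 259.8 RPM.

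Gabarapl2, the remaining GABARAP branch gene, fell to 5.17, 3.33 and 2.00 RPM at 4w, 5w and 6w, against 17.6, 31.9 and 11.97 RPM at 1w, 2w and 3w. These were 27, 20 and 14 reads in the 4w, 5w and 6w libraries, against 81, 135 and 55 reads in the 1w, 2w and 3w libraries, with no overlap. Its main pA lay 2977 nt after the stop codon and beyond the annotated end of the gene, and held 93.4% of last-exon reads in the 4–6 week samples and 93.7% in the 1–3 week samples.

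Within the ATG8 family the composition turned over. Gabarapl1 made up 12.3%, 17.7% and 17.2% of family reads in the 4w, 5w and 6w libraries, against 5.86%, 5.92% and 4.58% at 1w, 2w and 3w. Map1lc3b made up 6.81%, 4.82% and 2.71% at 4w, 5w and 6w, against 47.4%, 54.5% and 27.1% at 1w, 2w and 3w. Gabarap was the largest share from 3w on and Map1lc3b before it. The GABARAP branch as a whole took 85.3%, 87.5% and 86.7% at 4w, 5w and 6w, against 49.7%, 42.5% and 66.9% at 1w, 2w and 3w. Shares within the family do not depend on the library total. The summed level of the family was 781, 839 and 1003 RPM at 4w, 5w and 6w, against 556, 649.5 and 637 RPM at 1w, 2w and 3w. In RPM the family total thus moved less than its parts. The change of the total relative to all genes was not fitted, and this comparison may depend on the scaling.

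**Figure D3:**
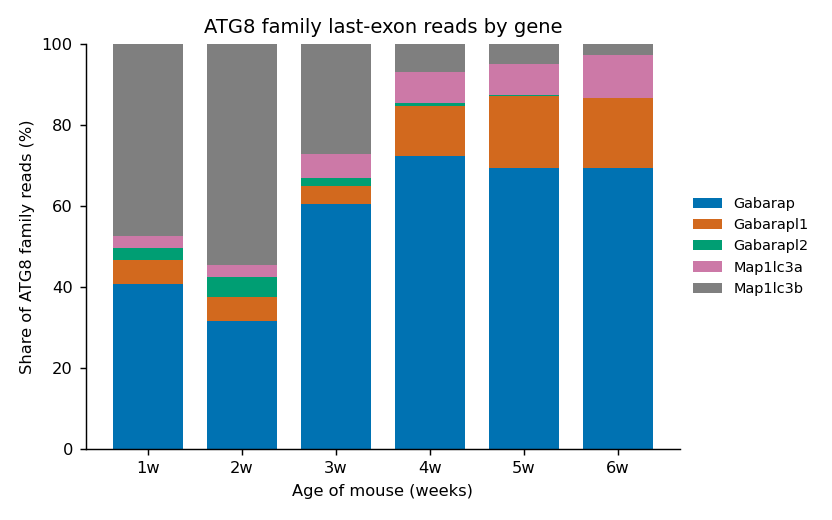
Stacked bars of the share (%) of last-exon reads of the ATG8 family held by each of its 5 genes, 1 bar per weekly library. The Gabarapl1 segment is 12.3% to 17.7% in the 4–6 week samples and 4.58% to 5.92% in the 1–3 week samples, and the Map1lc3b segment narrows to 2.71% at 6w.

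Ulk1, the kinase that starts autophagy, had 2.87, 1.83 and 1.86 RPM at 4w, 5w and 6w, against 50.02, 29.97 and 9.36 RPM at 1w, 2w and 3w. These were 15, 11 and 13 reads in the 4w, 5w and 6w libraries, against 230, 127 and 43 reads in the 1w, 2w and 3w libraries. No libraries overlapped, and within the 1–3 week samples 1w was the highest and 3w the lowest. The mean was 2.19 ± 0.592 RPM in the 4–6 week samples and 29.8 ± 20.3 RPM in the 1–3 week samples (SD, n = 3 libraries each), with a log2 change of −2.38 relative to all genes, the lowest of the 10 members. Its distal pA, 1683 nt after the stop codon, held most reads throughout, and the proximal one had 0, 0 and 2 reads in the 4w, 5w and 6w libraries, against 14, 23 and 5 at 1w, 2w and 3w.

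Becn1 encodes Beclin 1, the scaffold of the lipid kinase complex. It had 60.5, 55.3 and 37.0 RPM at 4w, 5w and 6w, against 114, 152 and 142 RPM at 1w, 2w and 3w. The groups did not overlap in RPM, but relative to all genes the level hardly moved, with a log2 change of −0.13 under TMM, 0.02 under DESeq2 size factors and −1.42 on PASS totals, so its direction depends on the scaling. Its Dis-pA share was 73.4%, 76.8% and 67.6% at 4w, 5w and 6w, against 89.3%, 89.6% and 89.3% at 1w, 2w and 3w, with no overlap. The Prx-pA averaged 13.6 RPM in the 4–6 week samples and 14.4 RPM in the 1–3 week samples, while the Dis-pA averaged 37.3 and 122 RPM. An intronic pA (chromosome 11, position 101157221) had 34, 31 and 45 reads in the 4w, 5w and 6w libraries, against 10, 11 and 31 at 1w, 2w and 3w, and made up 10.8% of sense reads in the 4–6 week samples and 2.77% in the 1–3 week samples. By reads at this pA 3w and 5w were equal, and its share at 3w, 4.53%, lay above 1w and 2w and below every 4–6 week library. In RPM this pA had 6.51, 5.16 and 6.43 at 4w, 5w and 6w, against 2.17, 2.60 and 6.75 at 1w, 2w and 3w. Its level was thus highest at 3w, and its share rose after 3w while the last-exon RPM fell.

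Atg5, which joins Atg12 in the conjugate that directs ATG8 lipidation, had 26, 24 and 28 reads in the 4w, 5w and 6w libraries, against 189, 156 and 63 reads in the 1w, 2w and 3w libraries. This was 4.98, 4.00 and 4.00 RPM in the 4–6 week samples, against 41.1, 36.8 and 13.7 RPM in the 1–3 week samples, with no overlap and a log2 change of −1.43 relative to all genes. Its Dis-pA share was 45.8%, 65.2% and 62.5% at 4w, 5w and 6w, against 83.6%, 81.5% and 73.3% at 1w, 2w and 3w. The late values lay below the early ones, but with 71 reads in all late libraries their Wilson intervals were wide, 27.9% to 64.9% at 4w and 61.0% to 82.9% at 3w.

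Atg7, the activating enzyme of both conjugation reactions, had 33, 32 and 26 reads in the 4w, 5w and 6w libraries, against 20, 12 and 33 at 1w, 2w and 3w. At 6.31, 5.33 and 3.71 RPM in the 4–6 week samples and 4.35, 2.83 and 7.18 RPM in the 1–3 week samples it was the only member of the 10 whose groups overlapped in RPM. Its log2 change was 1.33 relative to all genes (2.03 without 3w) and 0.09 on PASS totals. The last-exon pA at 201 nt held most reads, 87 in the 4–6 week samples and 51 in the 1–3 week samples. The one at 3040 nt had 0 in each 4–6 week library, against 3, 3 and 2 reads in the 1w, 2w and 3w libraries, which at 8 reads is little to go on.

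Sqstm1, the receptor that links ubiquitinated cargo to ATG8 proteins, had 23.2, 18.3 and 9.0 RPM at 4w, 5w and 6w, against 127, 93.9 and 49.0 RPM at 1w, 2w and 3w. Every late library was below every early one and each week was below the week before. The log2 change was −1.11 relative to all genes and −2.42 on PASS totals. Its Dis-pA share was 43.7%, 44.9% and 52.4% at 4w, 5w and 6w, against 58.4%, 53.1% and 53.4% at 1w, 2w and 3w. The late shares were the lower ones, but the Wilson intervals of 6w (40.3% to 64.2%) and 3w (46.8% to 59.9%) overlapped.

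**Figure D4:**
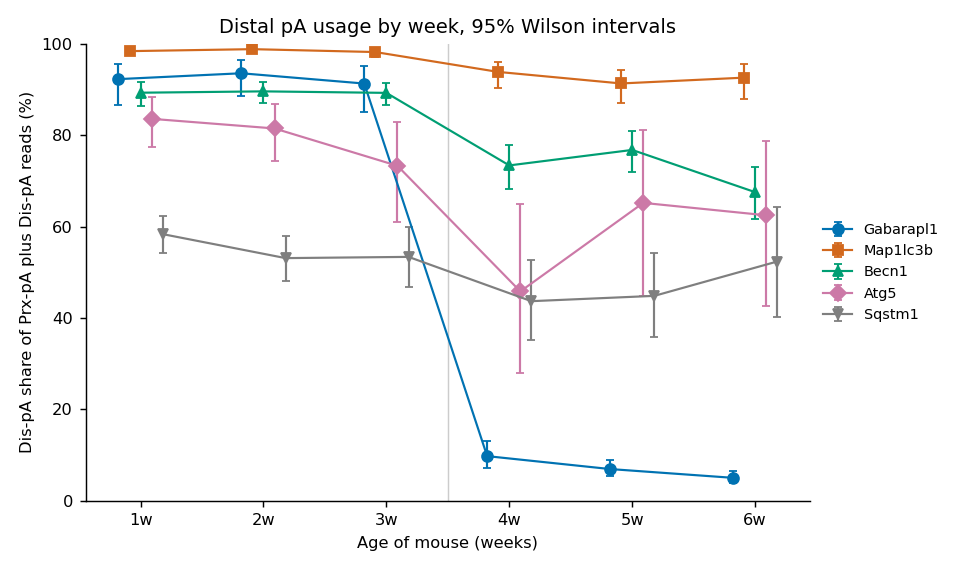
Share of the Dis-pA in Prx-pA plus Dis-pA reads (%) of 5 members against the age of the mouse, 1 point per library, with bars for the 95% Wilson interval (counting error only). Gabarapl1 stands at 5.03% to 9.77% in the 4–6 week samples and 91.3% to 93.6% in the 1–3 week samples, and Map1lc3b stays above 91%.

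Only 6 members had the 20 reads in every library that the ratio of Dis-pA to Prx-pA needed, and 4 of them (Gabarapl1, Gabarap, Map1lc3b, Becn1) had a lower ratio in the 4–6 week samples with an edgeR adjusted p under 0.05, also with each library left out, and none of the 6 had a positive fitted change. Among all 4271 genes tested the ratio was lower for 34.5% and higher for 1.29%, with a median log2 change of −1.11. The log2 change was −7.33 for Gabarapl1, −2.42 for Map1lc3b, −1.66 for Becn1, −1.56 for Atg5 and −0.48 for Sqstm1. Gabarap, with 0 early Prx-pA reads, has no size to give. The members were selected on their pA usage in these same libraries, so the adjusted p is no test of them. The calls are a description, and nothing is read from them beside the share of all genes.

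By the likeness of its level over the 6 libraries (root mean square difference of centred log2(RPM + 1)), the genes nearest to Gabarapl1 among 11268 were 1700071K01Rik (0.127), BC022687 (0.143), Chchd3 (0.150), AU023871 and Ifnk (0.162 each). Chchd3, which encodes a protein of the mitochondrial inner membrane, had 1283, 1625 and 1829 RPM at 4w, 5w and 6w, against 333, 378 and 347 RPM at 1w, 2w and 3w. 1700071K01Rik had 0 reads in each 1–3 week library and at most 4.00 RPM in the 4–6 week samples, so its likeness rests on few reads. AU023871 had at most 1.18 RPM and Ifnk at most 0.944 RPM in the 1–3 week samples, so their likeness rests on few early reads too. Of the other members Map1lc3a ranked 283 and Gabarap 378.

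By the Dis-pA share, the nearest of 4270 genes were Eif4h (2.35 percentage points), 9130023H24Rik (3.97), Fam110a (4.17), Eif4e (4.31) and Tfam (4.57). Eif4h and Eif4e encode translation initiation factors, and Tfam the packaging factor of mitochondrial DNA. Eif4h had a Dis-pA share of 13.2%, 5.98% and 4.08% at 4w, 5w and 6w, against 88.8%, 93.4% and 94.0% at 1w, 2w and 3w. Both likeness measures compare 6 libraries that share the change in cell makeup with age, and are a description.

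A list of 63 other autophagy genes set the members in the pathway. Of these, 60 were in the table and 53 were tested for level, of which 5 rose, 15 fell and 33 did not pass in the 4–6 week samples (edgeR, adjusted p under 0.05), against 17.7% and 22.5% of all genes. The median log2 change of the 53 was −0.31, against −0.07 over all genes. Without 1 library the count of genes that rose was 3 without 1w, 17 without 3w and 2 without any 1 of the others, and the count that fell was 9 without 1w, 2 without 2w, 20 without 3w, 4 without 4w and 0 without 5w or without 6w. Foxo3 and Trp53inp2 kept their call with each library left out, and none of the 15 that fell did. At an unadjusted p under 0.05, 15 genes were lower without 5w and 15 without 6w.

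Foxo3, a transcription factor that acts on autophagy genes, rose most. It had 44, 87 and 154 reads in the 4w, 5w and 6w libraries, against 2, 2 and 1 at 1w, 2w and 3w, a fitted log2 change of 6.66 (SE 0.711, edgeR adjusted p = 0.00641) that rests on few early reads. With the reads of all its sense pAs, intronic ones included, the log2 change of Foxo3 was 3.07. Trp53inp2, whose protein binds ATG8 proteins, had 8.80, 7.66 and 4.86 RPM at 4w, 5w and 6w, against 2.83, 4.01 and 3.27 RPM at 1w, 2w and 3w, with a log2 change of 2.36 (SE 0.307, edgeR adjusted p = 0.00718). Atg9a, a lipid scramblase of the growing membrane, Atg12 and the ferritin receptor Ncoa4 rose by 2.13, 1.57 and 1.35 on the log2 scale relative to all genes (edgeR adjusted p = 0.0411, 0.0259 and 0.0228), although their RPM overlapped between the groups. Without 3w the log2 change of Atg9a was 3.29. On PASS totals their changes were 0.93, 0.20 and 0.04 and did not pass, and of the 5 only Foxo3 did, beside 9.59% of all genes higher on the same totals.

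Of the 15 that fell, the 8 with the largest changes are given. Tfeb and Tfe3, transcription factors of lysosomal and autophagy genes, had log2 changes of −2.14 (SE 0.349, edgeR adjusted p = 0.0115) and −2.13 (SE 0.385, edgeR adjusted p = 0.0149). Tfe3 had 8.23, 6.49 and 4.29 RPM at 4w, 5w and 6w, against 72.4, 106.9 and 33.7 RPM at 1w, 2w and 3w, with no overlap. Wdr45, which binds the marked membrane, changed by −2.11, the cargo receptor Ccpg1 by −2.10, 9430023L20Rik (Atg101, a partner of the ULK1 kinase) by −1.998, Plekhm1 (lysosome fusion) by −1.87, Atg14 (lipid kinase complex) by −1.86 and Trp53inp1 by −1.71, with edgeR adjusted p between 0.0186 and 0.0236. By role, those that fell were 4 of 10 upstream regulators, 3 of 6 genes of the lipid kinase complex and its regulators, 2 of 12 cargo receptors, 2 of 7 genes of fusion and the lysosome, 1 of 4 of the ULK1 kinase complex, 1 of 4 conjugation enzymes, 1 of 3 phosphoinositide binders, 1 of 3 ATG4 proteases and 0 of 4 genes of lipid supply, beside 22.5% of all genes. Those that rose were 2 upstream regulators and 1 each of the cargo receptors, the conjugation enzymes and the lipid supply genes, beside 17.7% of all genes. On PASS totals 33 of the 53 fell, the 15 among them, beside 55.0% of all genes on the same totals.

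**Figure D5:**
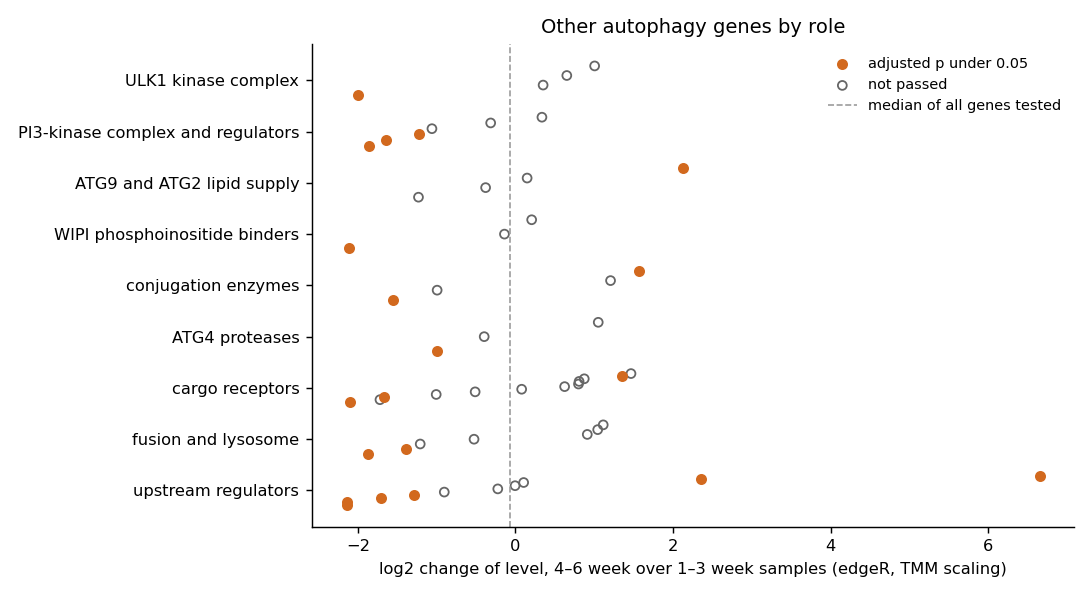
Log2 change of level in the 4–6 week over the 1–3 week samples (edgeR, TMM scaling) for 53 autophagy genes outside the 10 members, 1 point per gene, in rows by role. Filled points have an adjusted p under 0.05 (5 to the right, 15 to the left), and the dashed line is the median of all genes at −0.07.

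In the same list 26 genes had enough reads for the isoform ratio, and 13 had a lower Dis-pA to Prx-pA ratio in the 4–6 week samples, 0 a higher one and 13 did not pass (edgeR), against 34.5% lower and 1.29% higher among all genes. At an unadjusted p under 0.05 the ratio of 1 gene was higher with edgeR, and DESeq2 found 0 higher at its adjusted threshold. The median log2 change of the ratio was −1.51 in the list and −1.11 over all genes. The 13 became 8 without 1w, 7 without 2w, 14 without 3w, 9 without 4w, 7 without 5w and 8 without 6w, and 7 genes (Atg12, Fam134b, Lamp2, Nbr1, Tax1bp1, Tsc1, Ulk2) kept their call each time.

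Nbr1, a cargo receptor related to Sqstm1, had a Dis-pA share of 28.6%, 16.8% and 14.8% at 4w, 5w and 6w, against 99.6%, 99.4% and 89.3% at 1w, 2w and 3w. Its ratio changed by −7.49 on the log2 scale (SE 1.02, edgeR adjusted p = 0.000425), and by −6.63 (without 1w) to −9.57 (without 3w) with 1 library left out. With its most used pA set against all its others, the log2 change was −4.14, its sign taken from the shift of the read-weighted pA position. Lamp2, a membrane protein of the lysosome, had a Dis-pA share of 11.2%, 4.9% and 2.9% at 4w, 5w and 6w, against 78.4%, 57.4% and 47.4% at 1w, 2w and 3w (log2 change −4.81, SE 0.687, edgeR adjusted p = 0.000532). In both genes the groups did not overlap. Tsc1, which restrains mTOR signalling, had 33.1% at the Dis-pA in the 4–6 week samples and 84.9% in the 1–3 week samples (log2 change −3.49, SE 0.639, edgeR adjusted p = 0.00208). Fam134b (Retreg1), a receptor for endoplasmic reticulum, had 90 of 226 reads at the Dis-pA in the 4–6 week samples and 430 of 430 in the 1–3 week samples, and Ccpg1 had 168 of 170 and 1402 of 1402, so no size is given for either. The call for Ccpg1 was at an edgeR adjusted p of 0.04996 and rested on the 2 late Prx-pA reads.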

How the data were processed

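Whole-testis RNA of 6 ages was sequenced by 3'READS. The authors kept PASS reads with at least 2 unaligned Ts, clustered pAs within 24 nt and deposited raw counts of PASS reads per pA. The submitters' processing notes name Bowtie2 and mm9. The handling of reads that match several places is not given in the sources used here. RPM used the PASS totals of the study, and 77.0% to 83.3% of them were in pAs of 1 gene. Left out were 1053 entries of pAs assigned to several genes, where a pA has an entry for each of its genes. Intervals are 95% Wilson intervals, and a count of 0 allows 3 reads; both cover counting error only. Genes were tested with edgeR 4.0.16 (R 4.3.3), TMM scaling and Benjamini-Hochberg adjustment at 0.05, on last-exon reads, or on Prx-pA and Dis-pA reads (the 2 last-exon pAs with most reads) with a term per library, for genes with at least 20 reads in every library. SE is the log2 change divided by the square root of F, so it follows the p. DESeq2 1.42.0 was an alternative. Methods were tested on simulated data. The 10 members and the lists were chosen with earlier results of these data known. Named genes are the members, up to 8 list genes per direction with the largest change of level and up to 5 of the ratio among those that passed, and the 5 genes nearest to Gabarapl1. Positions and stop codons are from GENCODE on mm9.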

Additional observations from a re-analysis of the deposited data

How the results depend on the processing

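With the DESeq2 test 12 genes of the autophagy list rose instead of 5, and with PASS totals 1 rose and 33 fell instead of 15. Over all genes these settings gave 3310 and 1079 higher against 1990, and PASS totals gave 6189 lower against 2541. With at least 50 reads per library 8 list genes had a lower isoform ratio instead of 13, and 969 of all genes instead of 1472. The other settings (DESeq2 size factors, no filter, all sense pAs, at least 10 reads, most used pA against the rest) moved these counts by less than 1.5 times. In the last of these settings the direction was taken from the shift of the read-weighted pA position. Leaving out 1 library gave 2 to 17 list genes higher, 0 to 20 lower, 7 to 14 ratios lower and 0 to 1 ratios higher; over all genes it gave 338 to 4392 higher, 0 to 4123 lower, 1044 to 1817 ratios lower and 22 to 138 ratios higher. The 0 was without 5w (edgeR), where 2311 genes were lower at an unadjusted p under 0.05. The cause of these shifts was not tested, and neither was the part of the smaller number of libraries where 1 was left out.

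Becn1 was the only member whose log2 change turned round, to 0.0203 with DESeq2 size factors and 0.0207 with the DESeq2 test, and between −0.30 (without 1w) and 0.154 (without 3w) with 1 library left out, being above 0 (0.0384 each) also without 4w and without 6w. The other 9 members kept their direction under all alternatives run, though only Gabarapl1 kept a call of level with each library left out. The calls of the members are a description, since the members were selected on these libraries. No paired analysis was possible because the labels give each library an age and no replicate number. With 1 library per week, p-values set the difference between groups against a spread within groups that holds age as well as error. Low reads limit Atg7, Atg5, Ulk1 and Gabarapl2, with 11 to 33 reads in each 4–6 week library.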
